A study of Homo sapiens with 2 samples.

Results

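LIN28A, LIN28B and TRIM71 were examined as the members of a named set, 3 of the 19974 protein-coding genes that RefSeq lists on chromosomes 1 to 22 and X. They were chosen by name, after methylation at their annotated ends in these same libraries was known. Values at those ends are therefore described here, and no test result is given for them. Each gene was taken with 10 kb on either side, and methylation was read within 500 bp of every annotated start and end, over the gene body and in each accessible region. The material was chromatin of undifferentiated H9 cells, an established human embryonic stem cell line grown on Matrigel in mTeSR medium. There was 1 group of 2 replicates, with no treatment and no control group. The assay was ATAC-Me, in which a transposase cuts open chromatin and the fragments are then converted. Unmethylated cytosines then read differently from methylated ones. Levels given here are those of the fragments read, and copies of a site in closed chromatin may be under-counted. The labels do not tell whether the replicates are separate cultures. Their spread, and any p-value built on it, may therefore be technical only.

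LIN28A and LIN28B are paralogous RNA-binding proteins with a cold shock domain and zinc knuckles. They bind precursors of the let-7 microRNAs and block their maturation. LIN28A does so by recruiting the uridylyl transferases TUT4 and TUT7, after which the exonuclease DIS3L2 degrades the tailed precursor. TRIM71, the human counterpart of nematode LIN-41, is a protein of the TRIM-NHL family that binds and represses messenger RNAs, CDKN1A among them. Its own messenger RNA is a let-7 target, as are those of LIN28A and LIN28B, so that the genes form a loop with let-7. They are known for their activity in pluripotent stem cells and early embryos. Methylation of CpG sites at a gene's start commonly accompanies silencing, and an unmethylated start is common in both active and inactive genes.

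The replicates held 29270697 and 52758656 reads summed over CpGs, and covered 31.2% and 58.3% of the CpGs listed on chromosomes 1 to 22 and X. Methylation was read slightly higher in replicate 2 at most starts: the median over 15728 autosomal starts of protein-coding genes was 0.678% in replicate 1 and 1.67% in replicate 2, and replicate 2 was the higher at 83.9% of them. Of the pluripotency genes SOX2, NANOG and SALL4, each start read under 3% in either replicate and lay near a peak. DNMT3B read 43.9% and 49.7% at its 1 listed start, a window of 11 CpGs with a peak summit 138 bp away. Whether DNMT3B has a start elsewhere was not tested. POU5F1 held no reads. Among fibroblast genes COL1A2 (4.68% and 1.76%) and TWIST1 (0.643% and 1.66%) were also low, COL1A1 read 37.5% and 19.5%, and THY1 and S100A4 had too few reads, so start methylation did not separate these lists and says nothing of RNA levels.

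All 3 genes run from the lower to the higher coordinate. LIN28A spans 26410817 to 26429728 on chromosome 1, TRIM71 spans 32817997 to 32897824 on chromosome 3, and LIN28B spans 104937026 to 105083332 on chromosome 6 (GRCh38). For TRIM71 the lower end of the gene is also its listed start, and for LIN28A the lower end was used as the start. LIN28B differs. RefSeq's promoter sequences place it on the plus strand with 2 starts, an upstream one at 104940965 and a downstream one at 104957107. They lie 3939 and 20081 bp inside the lower end of the gene, and no promoter was listed at that end itself. LIN28B has 3 RefSeq transcripts, 2 curated and 1 predicted, and the tables do not say which begins where. Whether a transcript begins at the lower end is therefore not known here. The 250 bases before each listed start are shown because the answer for LIN28B turns on them. Capitals mark the CpGs, each of which was found at the same position in the deposited tables. Sequences are from RefSeq (GRCh38.p14), plus strand, 5′ to 3′.
LIN28B upstream start, chr6:104940715-104940964: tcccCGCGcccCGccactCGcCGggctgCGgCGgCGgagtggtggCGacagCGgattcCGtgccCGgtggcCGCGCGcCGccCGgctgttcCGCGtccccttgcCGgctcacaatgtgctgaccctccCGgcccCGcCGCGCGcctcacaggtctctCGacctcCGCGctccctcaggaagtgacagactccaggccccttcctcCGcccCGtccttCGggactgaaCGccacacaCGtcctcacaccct
LIN28B downstream start, chr6:104956857-104957106: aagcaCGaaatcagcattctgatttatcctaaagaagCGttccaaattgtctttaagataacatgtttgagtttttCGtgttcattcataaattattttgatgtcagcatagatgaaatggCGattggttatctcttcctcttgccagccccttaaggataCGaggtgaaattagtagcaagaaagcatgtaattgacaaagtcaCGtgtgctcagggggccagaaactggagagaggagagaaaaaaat
TRIM71 start, chr3:32817747-32817996: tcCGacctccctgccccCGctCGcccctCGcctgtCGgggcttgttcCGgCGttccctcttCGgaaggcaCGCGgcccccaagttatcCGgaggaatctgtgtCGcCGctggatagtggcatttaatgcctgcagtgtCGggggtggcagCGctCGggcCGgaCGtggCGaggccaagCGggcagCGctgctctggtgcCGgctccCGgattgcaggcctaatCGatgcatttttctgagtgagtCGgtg

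The 2 starts of LIN28B are unlike in sequence. The upstream stretch holds 33 CpGs and is 73.6% G or C, and the downstream one holds 6 CpGs and is 38.4% G or C, against a median of 11 CpGs over the same stretch of 35097 promoters. The TRIM71 stretch holds 25 CpGs and is 66.0% G or C. Searched on both strands, the GC box GGGCGG, which the SP and KLF factors bind, occurred 2 times before the upstream start of LIN28B and in 42.6% of all promoters. The CAAT box CCAAT (32.0% of all promoters) and the E-box CACGTG (6.34%) each occurred 1 time before the downstream start. The octamer ATGCAAAT, bound by POU factors, and the TATA box TATAAA occurred in none of the 3. These matches describe letters and not bound sites.

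Both listed starts of LIN28B were unmethylated in the fragments read. The methylated lower end of the gene is not one of them, though a transcript may begin there. Within 500 bp of the upstream start 10 of 1915 reads were methylated in replicate 1 and 26 of 2050 in replicate 2, that is 0.522% and 1.27%, a mean of 0.895% ± 0.528 (SD, n = 2). All 140 CpGs of that window were covered, and 133 and 120 of them had no methylated read. Within 500 bp of the downstream start 0 of 196 and 1 of 138 reads were methylated, a mean of 0.362% ± 0.512 (SD, n = 2). A count of 0 in 196 reads allows up to 1.53% if reads are independent. A read is counted at each CpG it covers, so that limit is too low. Both starts were therefore low in both replicates, despite the difference in CpG content. At the lower end of the gene the picture was the opposite. There 87 of 87 reads were methylated in replicate 1 and 93 of 98 in replicate 2, a mean of 97.4% ± 3.61 (SD, n = 2). That window holds 46 CpGs, as many as the window at the LIN28A start, and 28 and 40 of them were covered. A covered CpG there held a median of 2 reads in each replicate, and at most 7 and 8. Reads per CpG were 1.89 and 2.13, against 13.7 and 14.6 at the upstream start. The counts at the lower end thus rest on few fragments. The window lies inside LIN28B-AS1, a long non-coding RNA gene that runs the other way from 104940527, and no peak overlapped it.

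The far, 3′ end of LIN28B held only 6 CpGs and 3 and 4 reads, of which 2 and 3 were methylated. Its 95% Wilson intervals run from 20.8% to 93.9% and from 30.1% to 95.4%, so that its level is hardly known. A comparison of the 2 annotated ends by CpG number alone thus picks the lower end, which is on the 5′ side but is neither listed start. Among 411 genes whose outer 5′ end and most upstream listed start lie over 1000 bp apart, with at least 20 reads at both in each replicate, 15 (3.65%) were over 80% methylated at the outer end and under 20% at the start. LIN28B is 1 of the 15 and was chosen with its outer end known, so nothing is read from its place there. AGO1, an Argonaute protein that carries microRNAs, is another, at 87.1% and 88.1% at the outer end and 1.75% and 5.09% at a start 13448 bp away.

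**Figure D1:**
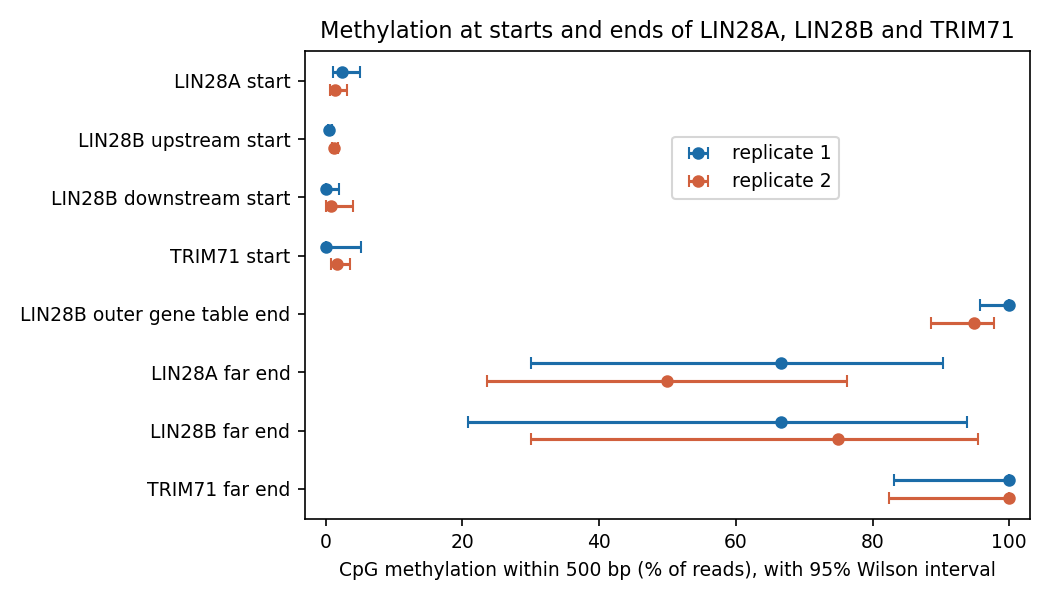
Methylation within 500 bp of each start and end (horizontal axis, percent of reads summed over CpGs) for the 2 replicates, with 95% Wilson intervals that cover counting error only. The 4 starts sit below 3%, the outer end of LIN28B sits at 94.9% and 100%, and the far ends of LIN28A and LIN28B have wide intervals because they hold 10 reads or fewer per replicate.

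The LIN28A start was unmethylated as well. There 6 of 252 reads were methylated in replicate 1 and 6 of 420 in replicate 2, or 2.38% and 1.43%, a mean of 1.90% ± 0.673 (SD, n = 2). The 2 libraries gave overlapping Wilson intervals, 1.10% to 5.10% and 0.656% to 3.08%. The window's 46 CpGs are few for a gene start, at the 17.3 percentile of all starts. At the TRIM71 start 0 of 71 reads were methylated in replicate 1 and 6 of 365 in replicate 2 (1.64%). The mean was 0.822% ± 1.16 (SD, n = 2). If reads were independent, 0 of 71 would allow up to 4.23%. A read is counted at each CpG it covers, and no CpG of this window held more than 3 reads in replicate 1. That limit is therefore too low, and the Wilson intervals above are too narrow. The 112 CpGs of the TRIM71 window put it at the 87.5 percentile. Low values were thus found at all 4 member starts. So they were at most genes, since 89.9% of all starts were under 20% in both replicates and 2.67% were over 80%.

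The TRIM71 start stood apart by its coverage. It held 0.634 reads per CpG in replicate 1 and 3.26 in replicate 2, at the 0.992 and 8.41 percentiles of all starts, where the medians were 7.87 and 11.4. In replicate 1 only 45 of the 112 CpGs were covered, and none of the 25 in the sequence shown above. In replicate 2 all 25 were covered and 2 of their 81 reads were methylated. The upstream start of LIN28B held 13.7 and 14.6 reads per CpG, the downstream start 8.91 and 6.27, and the LIN28A start 5.48 and 9.13. Reads per CpG depend on accessibility and on how well a sequence is recovered, which cannot be told apart here. A peak summit lay within 1000 bp of 81.1% of all starts, and near 3 of the 4 member starts: 33 bp from that of LIN28A and 433 and 364 bp from those of LIN28B. The nearest summit to the TRIM71 start was 1361 bp upstream.

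The far end of TRIM71 was methylated. There all 19 and 18 reads of the 3′ end were methylated, in both replicates, with Wilson intervals from 83.2% and 82.4% upward. These intervals are too narrow, because a read is counted at each CpG it covers. Start minus end was −100 and −98.4 percentage points in the replicates. At LIN28A 4 of 6 and 5 of 10 reads were methylated, and the mean of 58.3% ± 11.8 (SD, n = 2) rests on these few. Its Wilson intervals, 30.0% to 90.3% and 23.7% to 76.3%, leave the level about as uncertain as at LIN28B. It was 81.7% within 1000 bp. Start minus end was −64.3 and −48.6 points at LIN28A. At LIN28B it was −66.1 and −73.7 points for the upstream start and −66.7 and −74.3 points for the downstream start. The ends had chosen the genes, so no test is given, and with 2 replicates the smallest two-sided p of an exact sign-flip test would be 0.5.

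Low methylation reached beyond the windows, as read in steps of 1 kb. At LIN28A the steps centred from −1.5 to 2.5 kb of the start read at most 3.33% in replicate 1 and 11.1% in replicate 2, and the step at 3.5 kb held no reads in replicate 1 and read 80.8% in replicate 2. At TRIM71 the steps from −1.5 to 3.5 kb read at most 4.17% and 2.52%, and the step at 5.5 kb read 35.3% and 83.3%. LIN28B had separate low parts around its 2 starts. The one at the upstream start also held the start of LIN28B-AS1, 438 bp away, and read 1.12% and 1.75% in the step at −0.439 kb and 0.178% and 2.03% in the step at 0.561 kb. The one around the downstream start ran from the step at 11.561 kb to that at 18.561 kb, counted from the upstream start, with values up to 1.22% and 3.57%. The DNA between them was thinly covered. The steps from 3.561 to 10.561 kb held 12 reads or fewer in each replicate, and read 40% to 100% wherever they had reads. From the lower gene end to 750 bp before the upstream start methylation was 100% and 96.0%.

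**Figure D2:**
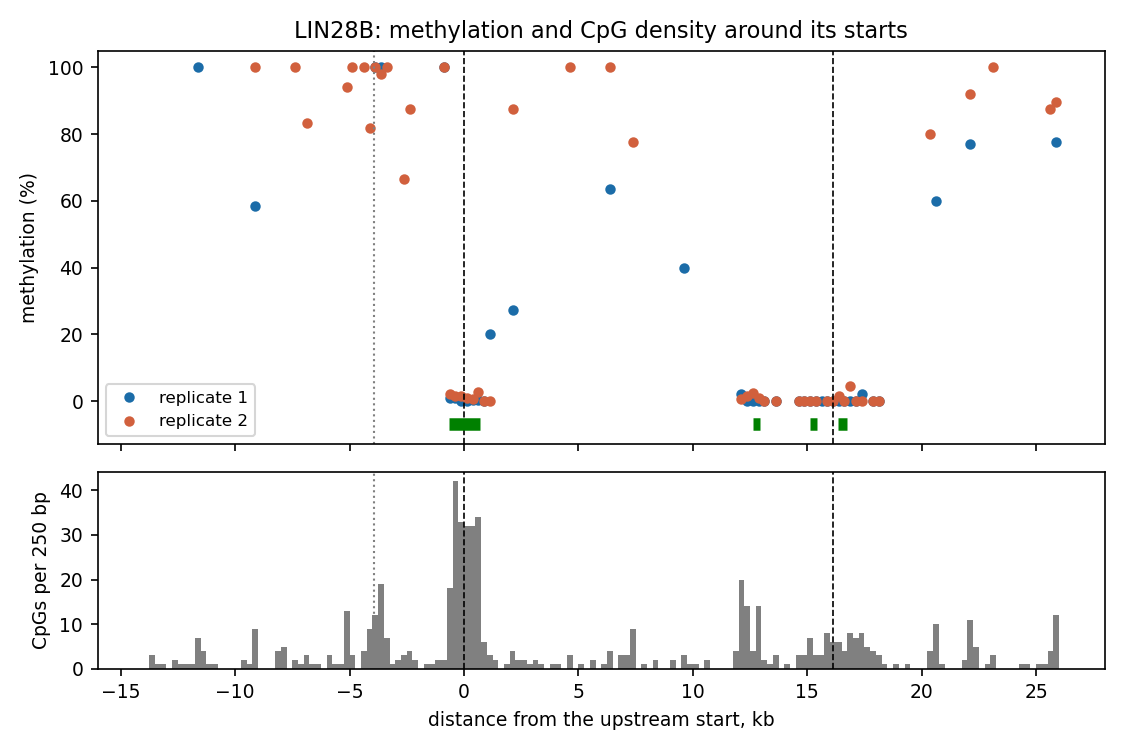
Upper panel: LIN28B methylation in steps of 250 bp with at least 5 reads (vertical axis, percent) for both replicates against distance from the upstream start (kb), with peaks as green bars. Lower panel: CpGs per step. The dashed lines are the listed starts at 0 and 16142 bp and the dotted line is the lower gene end, 3939 bp before the upstream start. Values near 0 surround both starts and values near 100% surround the lower gene end.

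The extended intervals held 19 of the 46980 deposited peaks, 6 at LIN28A, 6 at LIN28B and 7 at TRIM71. Of the 19, 15 were under 20% methylated in both replicates, against 70.2% of the 40703 autosomal peaks with at least 10 reads in each. None was over 80% in both, a class that holds 0.391% of those peaks. The read minimum was met by 18 of the 19. The authors' peak signal is given only to rank peaks.

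At LIN28A, peaks clustered at the start and in the first part of the gene. The peak that spans the start (26410187 to 26410884, 23 CpGs) read 2.65% and 1.5%. A weaker one with its summit at −1304 bp read 4.17% (24 reads) and 1.06% (94 reads). Inside the gene, peaks 1907 and 8362 bp from the start read 4.35% and 1.82%, and 0.599% and 0.830%. The second of these holds only 4 CpGs in 523 bp, at 167 and 241 reads. The peak between them, 6336 bp from the start, was higher, at 6.59% and 10.4%. It read 18.1% on average when each CpG counted equally. The sixth peak, 21405 bp away with 41 CpGs (0.233% and 1.31%), covers the start of the neighbouring gene DHDDS, an enzyme of dolichol synthesis, and that of LOC124903883.

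LIN28B carried the widest of its peaks at the upstream start. That peak (104940300 to 104941669) is 1370 bp wide, wider than 99.6% of peaks, holds 189 CpGs and read 0.516% of 2711 reads and 1.65% of 3099 reads. Its signal of 2847 exceeded that of 97.2% of peaks. It covers the starts of both LIN28B and LIN28B-AS1, and its summit at 104940532 lies next to the latter, at 104940527. Around the downstream start lay 3 narrower peaks, with summits at −3332, −873 and +364 bp from it. They held 15, 8 and 6 CpGs, or 4.69, 2.92 and 1.55 per 100 bp, against a median of 2.45 over all peaks. Methylated reads numbered 0 of 333 and 3 of 284 in the first, 0 of 111 and 0 of 161 in the second, and 0 of 121 and 1 of 92 in the third. All 3 peaks were thus under 2% in both replicates. The remaining peaks lay deep in the gene and differed. The one 57583 bp after the downstream start has 2 CpGs at 22.5% (40 reads) and 12.3% (57 reads). The one 81281 bp after it has 1 CpG at 81.8% (11 reads) and 57.1% (7 reads), and its signal of 212 exceeded that of only 2.80% of peaks.

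TRIM71 had its strongest peaks far inside the gene and not at its start. The peak nearest the start (32816389 to 32817111, 70 CpGs) ends 886 bp before it and read 0.458% of 874 reads and 1.0% of 999 reads. The strongest lay 26156 bp inside the gene (32843034 to 32844576). It is 1543 bp wide, wider than 99.8% of peaks, with only 24 CpGs, and read 0.746% and 1.42%. Another lay 51879 bp inside, with 15 CpGs at 0.467% and 0.610%. Smaller peaks 18128 and 22662 bp from the start, with 4 and 3 CpGs, held 0 of 67 and 1 of 99 methylated reads and 0 of 26 and 0 of 19. Next to the peak at 51879 bp, a weaker one at 52570 bp read 34.8% (23 reads) and 15.0% (40 reads).

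A peak 5347 bp beyond the 3′ end of TRIM71 was partly methylated in both replicates. It lies at 32902863 to 32903437 and holds 36 CpGs, 6.26 per 100 bp against a median of 2.45 over all peaks. Methylated were 139 of 376 reads and 160 of 440 reads, 37.0% and 36.4%, a mean of 36.7% ± 0.427 (SD, n = 2). With each CpG counted equally the mean was 33.8% ± 5.08 (SD, n = 2). The small SD of the totals therefore does not show that the replicates match at each CpG. Of its covered CpGs, 30 of 35 and 21 of 36 lay between 20% and 80%, and the medians were 33.3% and 23.1%. It was the only one of the 19 member peaks between 20% and 80% in both replicates, a class that holds 20% of all tested peaks. Whether single fragments are wholly methylated or wholly unmethylated cannot be read from these tables, which give each CpG on its own.

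**Figure D3:**
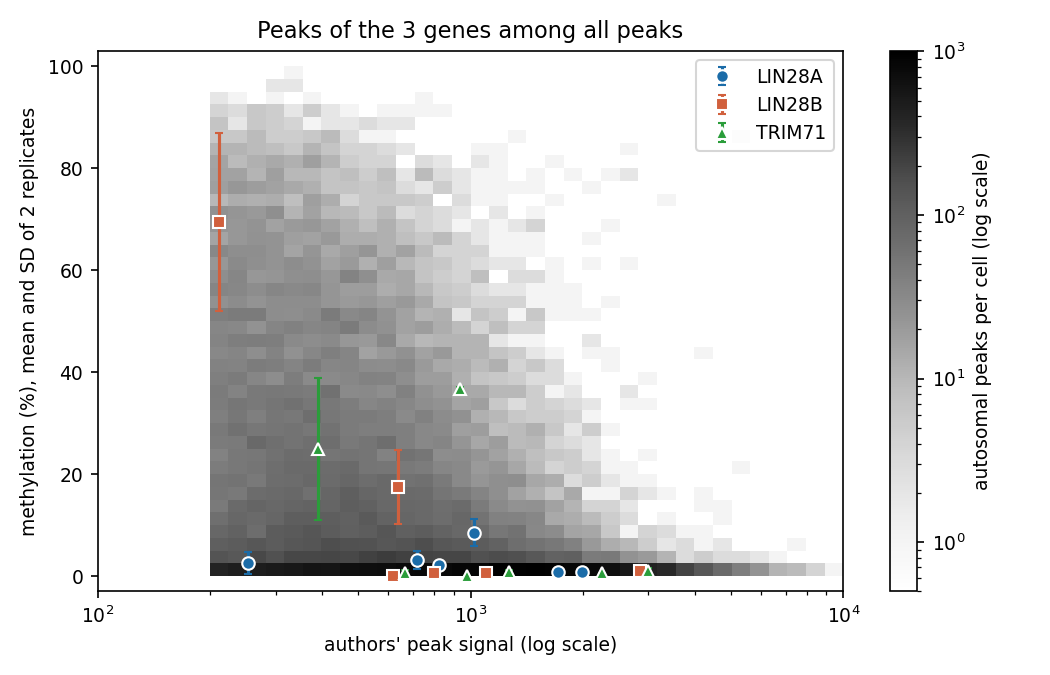
The 19 member peaks (symbols, mean and SD of 2 replicates) by the authors' peak signal (horizontal, log scale, up to 10000) and methylation (vertical, percent), over all tested autosomal peaks in grey (darker cells hold more peaks, log scale). Most member peaks lie on the floor near 0, and the TRIM71 peak at 36.7%, the weaker TRIM71 peak at 24.9% and the LIN28B peak at 69.5% stand above it.

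The replicates were compared over all starts and peaks. Fisher's exact test of methylated and unmethylated reads, two-sided and Benjamini-Hochberg adjusted over all features, called 28.0% of all starts and 7.89% of all peaks at 0.05. Calls with replicate 2 the higher made up 26.8% of all starts, or 95.6% of the called ones. The member starts were among the starts tested, but their results are not read here. Levels at the gene ends were known when the genes were chosen, and the LIN28A and TRIM71 starts are such ends. The peak that spans the LIN28A start also covers such an end, and its result is not read either. Of the 18 member peaks tested, that one included, 1 was called, the wide peak of LIN28B. It read 0.516% against 1.65% (adjusted p = 0.0022 by Fisher's exact test). The difference has the same direction as at most starts, and reads on 1 fragment are counted at each CpG, so p-values are too small. With the statistic divided by the overdispersion over all peaks, that call was lost (adjusted p = 1.0 by chi-square test).

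Gene bodies showed the contrast between open and closed parts of each gene. Over the body, more than 500 bp inside both ends, LIN28B read 11.0% and 22.2%, LIN28A 18.9% and 31.1% and TRIM71 35.7% and 42.2%. The medians of 11973 bodies were 57.1% and 69.9%. LIN28B lay at the 9.35 and 11.1 percentiles, LIN28A at the 16.3 and 16.8 and TRIM71 at the 29.8 and 24.1. The LIN28B body is cut from the gene ends, so it holds both listed starts. It also holds the wide peak at the upstream start, with 2711 and 3099 reads. The bodies of LIN28A and TRIM71 leave out 500 bp next to their starts, so the percentiles are not on an equal footing. Most reads of the LIN28B body lay in its peaks. There 3327 of 4527 and 3700 of 5560 reads were found, at 0.962% and 1.78%. Outside peaks its body read 38.9% and 62.8%, that of LIN28A 32.0% and 46.5% and that of TRIM71 60.3% and 58.7%. Leaving out 2000 bp around each listed start as well, the bodies read 64.3% ± 13.5, 67.7% ± 9.29 and 65.1% ± 2.14 (SD, n = 2) for LIN28B, LIN28A and TRIM71, which differ by less than the spread of LIN28B. The replicates also differ in how much of the DNA outside peaks they cover, and its part in their different levels was not tested: in LIN28B 469 and 778 of 1125 CpGs outside peaks had reads.

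**Figure D4:**
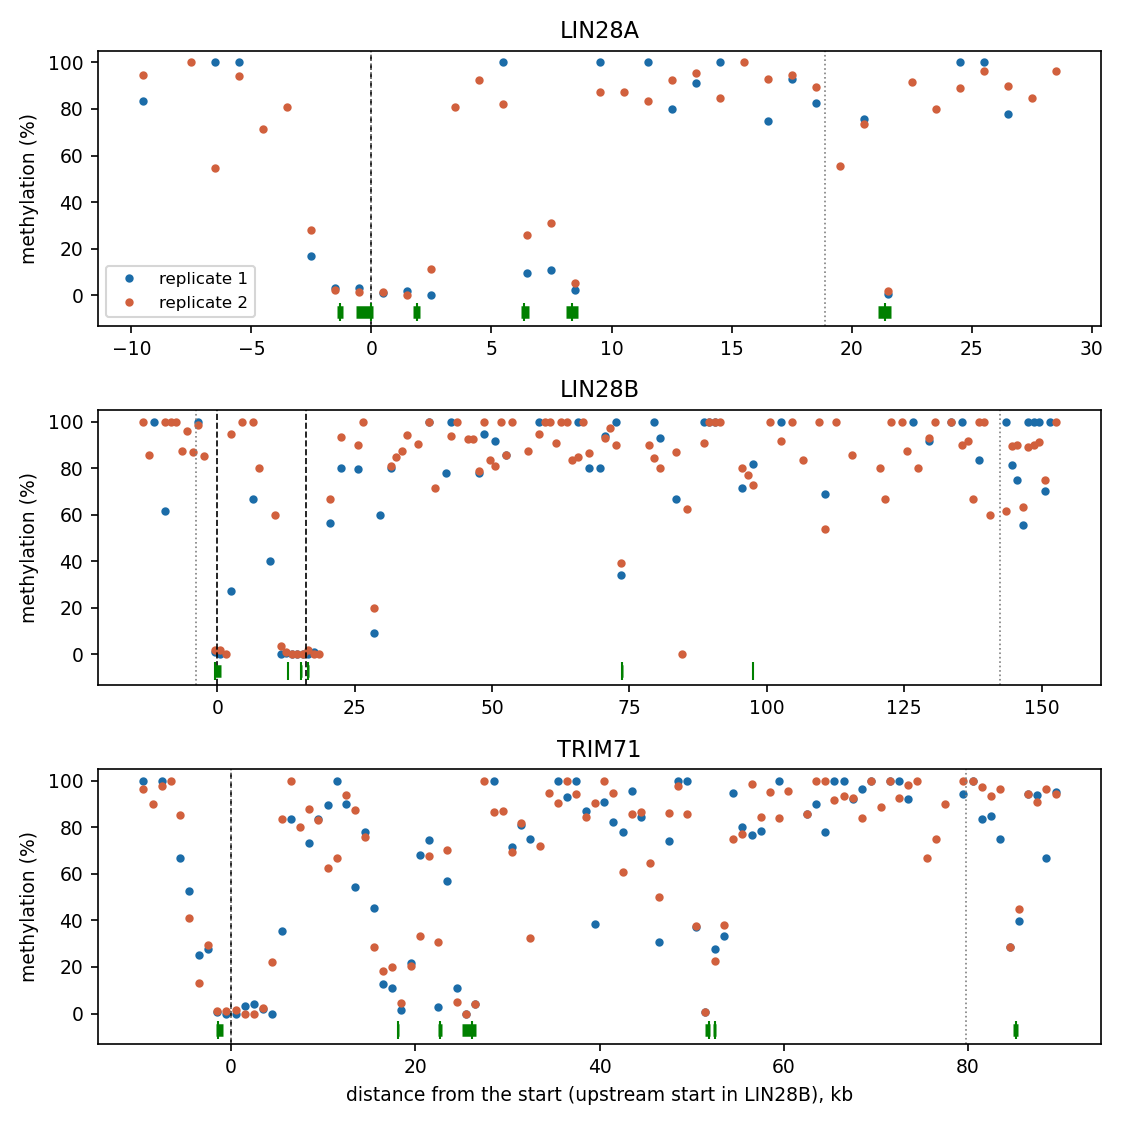
Methylation in steps of 1 kb with at least 5 reads (vertical axis, percent) across each gene and 10 kb on either side, against distance from its start (kb; the upstream start in LIN28B), with peaks as green bars, listed starts dashed and gene ends dotted. Dips to near 0 lie at the starts and at most peaks, and most other steps are above 60%.

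Genes of the let-7 pathway were nearly all unmethylated at their starts, like most genes. Each was read at its most upstream listed start, or at its outer 5′ end where none was listed. At least 20 reads were required in each replicate. Over all genes read this way 91.4% were under 20% and 2.55% over 80% in both replicates, 83.0% had a peak summit within 1000 bp, and the medians were 0.673% and 1.65%. All 13 measured genes of let-7 processing and decay were under 20% and had a peak, with medians of 0.280% and 1.32%. They include DROSHA, the nuclear ribonuclease that cuts primary microRNAs (0.220% and 0.696%), TUT4 (0.279% and 0.962%), TUT7 (0.202% and 1.32%) and DIS3L2 (0.769% and 2.53%). AGO1 was the highest of them by the mean of the replicates. AGO2 was not measured, with 3 and 20 reads. All 14 measured let-7 targets were under 20% too, with medians of 0.534% and 1.78%, and 12 had a peak. HMGA2, a chromatin protein of embryonic cells, was unmethylated (0.474% and 2.18%) with its nearest summit 1449 bp away, and CDK6, a cell cycle kinase, read 1.35% and 2.56% with its nearest summit 2558 bp away. NRAS was the highest at 2.0% and 3.03%, and CCND1, a cyclin, the lowest at 0.240% and 0.494%, both by the mean of the replicates. HRAS held no reads.

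The small lists of relatives were alike. The TRIM71 targets CDKN1A, a cell cycle inhibitor (1.02% and 0.993%), EGR1 (0.332% and 1.46%), RBL1 (1.25% and 0.880%) and RBL2 (2.86% and 3.30%) were unmethylated and had a peak. So were the relatives TRIM2 (5.59% and 4.07%), TRIM3 (1.53% and 2.01%) and TRIM32 (2.92% and 2.97%). Of the 6 cold shock domain genes, 5 were under 20%, from YBX1 (0.105% and 0.981%) to YBX2 (0.566% and 1.92%). The exception was CSDC2, at 38.6% of 57 reads and 54.7% of 139 reads, with its nearest summit 16032 bp away. CSDC2 has no listed start and was read at its outer 5′ end. At LIN28B such an end was methylated while the listed starts were not. Whether CSDC2 has a start elsewhere was not tested.

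The let-7 loci split. Only 3 of the 12 hairpins had at least 20 reads in each replicate within 500 bp. MIRLET7I read 0.299% of 1002 reads and 1.68% of 1014 reads and had a peak summit 425 bp away. MIRLET7A3 read 85.3% of 34 reads and 91.4% of 93 reads, and MIRLET7B, its neighbour on chromosome 22, read 87.5% of 32 reads and 89.1% of 55 reads. Neither had a summit within 1000 bp. The windows of MIRLET7A3 and MIRLET7B overlap, so their values may rest partly on the same reads. A hairpin need not lie near the start of its transcript. The mature sequences (RefSeq, GRCh38.p14) are shown because loci with opposite methylation encode the same seed, bases 2 to 8, given in capitals.
let-7i-5p: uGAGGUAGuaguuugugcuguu
let-7a-5p: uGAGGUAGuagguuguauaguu
let-7b-5p: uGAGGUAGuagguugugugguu

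**Figure D5:**
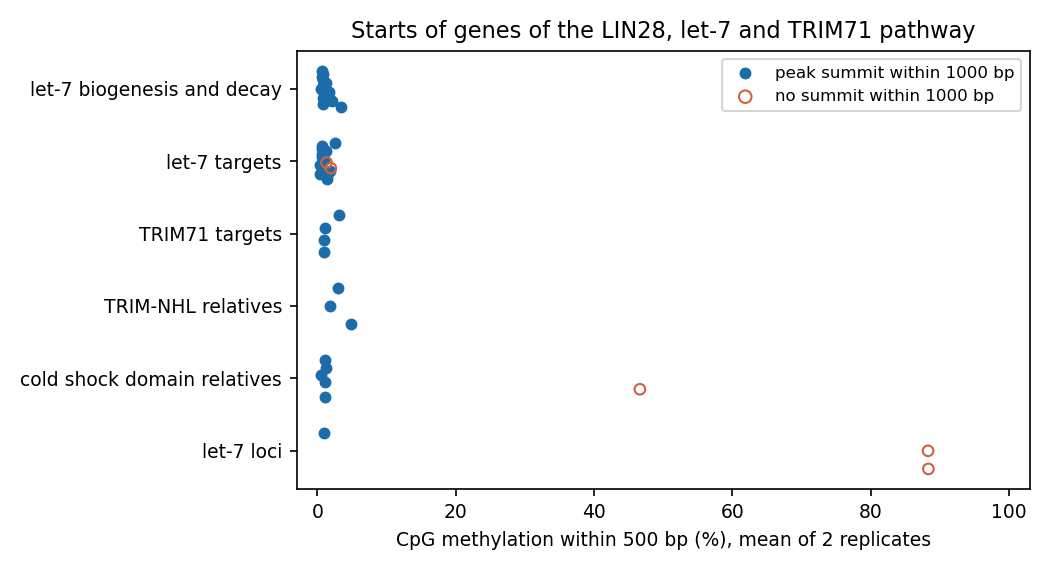
Methylation within 500 bp (horizontal axis, percent, mean of 2 replicates) of each measured gene of 6 lists, filled where a peak summit lies within 1000 bp. All but CSDC2 and the 2 methylated let-7 loci are below 6%.

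Genes with the most similar values were found by the mean absolute difference over 6 values, start, body and far end in each replicate, among 679 genes with at least 50 reads in each region. Nearest to LIN28B were RPL13 (3.11 points), LTBP3 (3.65) and SLC4A2 (3.75). Nearest to LIN28A were LOXL1 (5.03 points), TNFAIP2 (5.23) and DAG1 (5.41), and nearest to TRIM71 were EIF3B (3.84 points), SEMA3B (4.06) and DHX30 (4.62). The 6 values count equally, and the members' own far ends hold few reads, so the order is uncertain.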

How the data were processed

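ATAC-Me libraries of H9 cells, 2 replicates of 1 group, were analysed. Per CpG the authors deposited the fraction of reads that were methylated (0 to 1) and the count of reads covering it. The deposited peak list has a score capped at 1000, a signal, −log10 q values and a summit. Trim Galore, Genrich and build hg38 (GRCh38) are named per the submitters' processing notes. The mapper, the methylation caller, duplicate handling and how replicates entered peak calling were not given in the sources used here.

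Methylated reads were computed as fraction times reads, and all products were whole within 0.01. A region's methylation is its methylated over its reads in percent, per replicate, then averaged. A read is counted at each CpG it covers, so intervals and floors (3 counts) cover counting error only and are too narrow. All 507176 CpGs in RefSeq's promoter sequences lay at the tables' positions. Coordinates are counted from 1. Starts came from those sequences (GRCh38.p14) or, for 18 listed genes without one, from the gene's end by its known direction. The starts of 15728 autosomal entries had at least 20 reads in each replicate. Members, gene lists and limits were chosen with earlier results of these data known. The text names the 3 members, neighbours, each list's extremes and exceptions and the 3 most alike genes. TUT4, TUT7 and DIS3L2 fall outside that rule and were named for their roles. Tests used scipy 1.17.1. The test at starts was tried on simulated independent reads, which lack the overdispersion of these data (8.82 over starts).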

Additional observations from a re-analysis of the deposited data

How the results depend on the processing

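Of 308 alternative values, 30 moved beyond the spread between replicates or 1.5 times a count and 1 lost its call. Starts held under all windows, weightings and read minimums tried, except that taking the outer gene end of LIN28B as the start gave 97.4% for both starts. Without either replicate the starts ranged from 1.43% to 2.38% (LIN28A), 0.522% to 1.27% and 0% to 0.725% (LIN28B) and 0% to 1.64% (TRIM71). The far ends moved with the window: with 250 bp LIN28A read 87.5% and LIN28B 83.3%, with 1000 bp LIN28A read 81.7% and TRIM71 98.7%. Start minus end was then −85.6 (LIN28A), −82.7 and −83.3 (LIN28B) with 250 bp, and −80.05 (LIN28A) and −98.01 (TRIM71) with 1000 bp. Bodies with each CpG weighted equally read 50.3% (LIN28A), 51.7% (LIN28B) and 59.3% (TRIM71), and with at least 3 reads per CpG 8.40% (LIN28B) and 30.2% (TRIM71). Outside peaks, an alternative chosen after seeing the data, they averaged 39.2%, 50.9% and 59.5%, and with starts left out as well 67.7%, 64.3% and 65.1%. Equal weights and leaving out peaks both give the deeply read open DNA less weight by construction. Divided by the overdispersion, the replicate test called 0 starts in place of 4405 and 6 peaks in place of 3210; the cause was not tested. With 250 bp the medians were 0.839% for TRIM71 targets and 3.54% for TRIM-NHL relatives. With at least 50 reads the let-7 loci held only MIRLET7I, at 0.988%. No paired analysis was possible because there is 1 group. Depth limits the far ends of LIN28A and LIN28B and the TRIM71 start in replicate 1.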
